A study of Mus musculus with 2 samples.

Results

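Oxidative phosphorylation genes encode the 4 respiratory complexes and the ATP synthase of the inner mitochondrial membrane. They were chosen by symbol alone, as the Nduf a, b, c, s and v families, Sdha to Sdhd, and the Uqcr, Cox4 to Cox8, Atp5 and mitochondrial Nd, Co, Atp and Cytb genes. This took 106 of the 31054 genes in the count matrices (105 symbols, since Atp5o stands for 2 gene IDs). Of these, 93 lie on nuclear chromosomes (36 for complex I subunits, 8 for complex I assembly factors, 4 for complex II, 8 for complex III, 20 for complex IV and 17 for ATP synthase) and 13 on the mitochondrial chromosome.

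The libraries hold GFP+ nuclei sorted from the ipsilateral cortex of Atf3-CreER:+/wt; SUN-SfGFP:+/wt mice over 7 weeks old at 7 days after mild closed-skull traumatic brain injury (mTBI), with tamoxifen at 4 and 5 days. There was 1 library of male and 1 of female mice, each from a pool of 4 animals. A label of the female library also calls its animals male, but Xist had 36 (male) and 37890 (female) UMIs, and Y-linked genes had 3309 (male) and 23 (female) UMIs. All animals were injured, and the reporter labels the nuclear envelope of cells in which Atf3, an injury-induced transcription factor, drove CreER while tamoxifen was present. Hence cells without Atf3 at that time are outside the design, no uninjured level exists here, and sex, pool and library cannot be told apart.

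Electrons from NADH and succinate enter the chain at complexes I and II, pass through complex III and cytochrome c to complex IV, and the proton gradient built on the way drives ATP synthase. The 13 mitochondrial genes are transcribed inside the organelle as long polycistronic RNAs without introns, so their transcripts in a preparation of nuclei come from outside the nucleus. The nuclear-encoded members are spliced from ordinary pre-mRNAs, which nuclei do contain. Neurons rely heavily on this pathway, whereas microglia can shift toward glycolysis when activated.

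Levels are given as CPM, the counts of a gene or gene set scaled by all UMIs of the same sum (1e6 UMIs). The deposited table labelled 4003 male and 4168 female nuclei, of which 1378 and 1202 formed the neuron subset. Labels came from the same nuclei as the values below and are not independent of them. The deposited percent of mitochondrial UMIs differed from that of the counts used here in 3822 female and 0 male nuclei. Whether the female labels came from these same counts is therefore not known. The median was 1742 UMIs per male and 3710 per female nucleus, and 1 barcode was called in both. Neurons held 20402 and 18793 CPM over 5 neuronal markers, against 2636 and 1908 CPM in nuclei labelled Micro-PVM, which are called microglia here and held 5774 and 5875 CPM over 10 microglial markers. The 10 microglial markers summed to 486 and 879 CPM in neurons, and no doublets had been removed. Nuclei labelled SMC-Peri held only 49.9 and 55.6 CPM over 4 mural markers, less than the 113 and 145 CPM in nuclei labelled VLMC, so that label goes against its markers and is used only as a name.

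Mitochondrial transcripts were the more variable part of the pathway, and the larger one in most labels but not in female L5 PT and Pvalb neurons. Summed over a label, the 13 mitochondrial genes took 1906 to 15279 CPM (male) and 855 to 37005 CPM (female) across the 15 labels found in both. The 93 nuclear-encoded genes took 1080 to 2312 CPM (male) and 861 to 1379 CPM (female). In neurons as a whole, the mitochondrial genes were at 3640 CPM (male) and 1374 CPM (female; 2507 ± 1603, SD, n = 2), and the nuclear-encoded genes at 1284 and 987 CPM (1136 ± 210.0, SD, n = 2). In microglia the mitochondrial level was 3562 and 4340 CPM (3951 ± 551, SD, n = 2) and the nuclear-encoded level 1380 and 1063 CPM (1222 ± 224, SD, n = 2). The libraries therefore differed more in the neuronal mitochondrial level than neurons and microglia did in the male library.

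L5 PT neurons, the layer 5 pyramidal tract cells, were at 2220 and 855 CPM for the mitochondrial genes, the lowest summed levels among the 9 neuronal labels with at least 50 nuclei over both libraries. By the mean over nuclei, Pvalb was lower (2693 and 972 CPM against 3674 and 1193 CPM in L5 PT). L2/3 IT CTX-1 neurons were at 2241 CPM in the male library, hardly above L5 PT, and at 1231 CPM in the female library. Pvalb interneurons were at 3217 and 865 CPM, and the female values of Pvalb and L5 PT were nearly equal. The L6 CT label reached 14011 CPM in the male library against 1086 CPM in the female one. Outside neurons, nuclei labelled VLMC were at 10565 and 16522 CPM and those labelled SMC-Peri at 15279 and 37005 CPM. In the SMC-Peri label, nuclei over 5% mitochondrial UMIs (9 of 92 and 12 of 41) held 63.8% and 66.6% of these UMIs, and without them the level was 6341 and 17920 CPM, and 8876 and 12166 CPM in VLMC. No order of the neuronal labels by mitochondrial level can be read beyond the spread between the libraries.

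The nuclear-encoded level was higher in the male library in 15 of 15 labels, by 1.19 to 2.04 times. The same held in droplets too small to be called nuclei (2117 against 1651 CPM at 1 to 50 UMIs). The mitochondrial level was higher in the male library in 11 of the 15 labels, and in the female library in microglia, Astro, VLMC and SMC-Peri. In Astro this rested on 2 of 62 female nuclei, each over 5% mitochondrial UMIs, which held 69.0% of the mitochondrial UMIs, and without nuclei over 5% the level was 4071 CPM (male) and 1890 CPM (female). With 1 library of each sex these differences have no test.

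**Figure D1:**
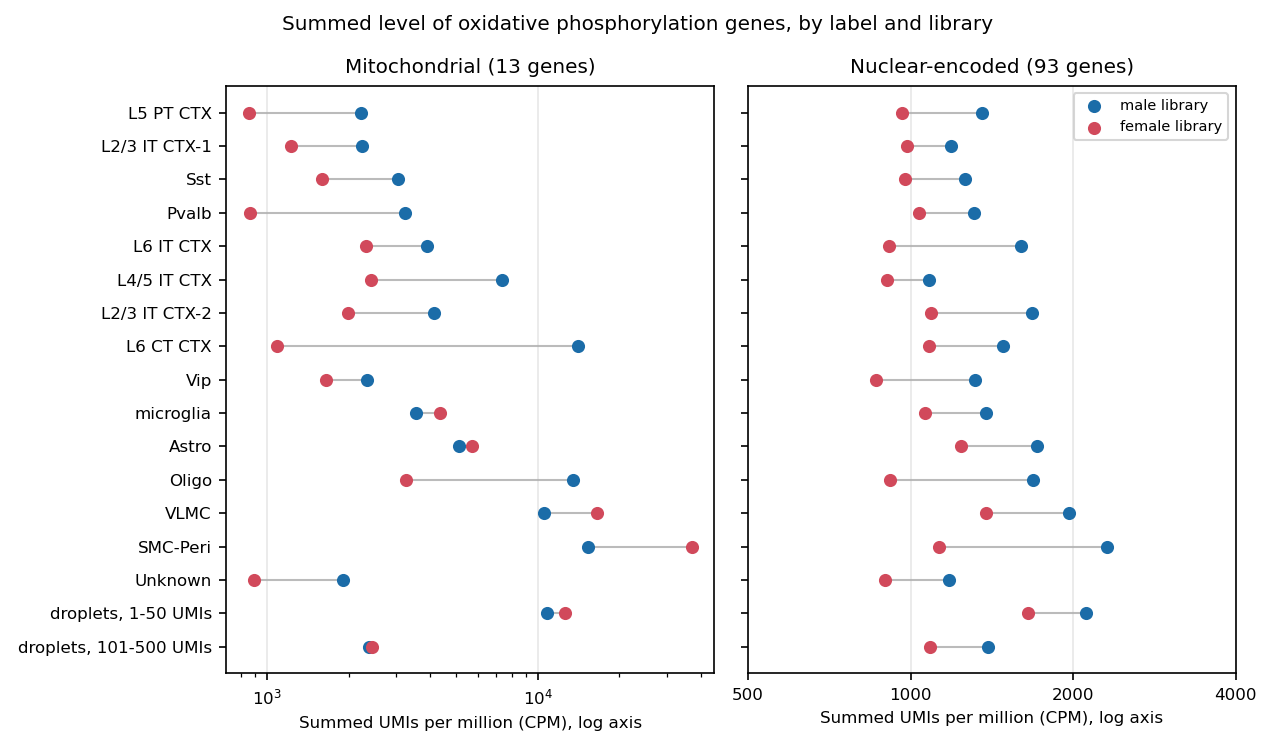
Summed level of the 13 mitochondrial (left) and the 93 nuclear-encoded genes (right) in CPM, on log axes, for each label and for 2 classes of uncalled droplets, with 1 point per library. The mitochondrial values spread from 855 to 37005 CPM, the nuclear-encoded ones from 861 to 2312 CPM, and the male library is to the right of the female one for every nuclear-encoded pair.

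A few nuclei carried much of the mitochondrial RNA. In the neuron subset, the 5% of nuclei with the most mitochondrial UMIs held 58.1% (male) and 42.6% (female) of them. In microglia these shares were 44.98% and 61.1%. Nuclei over 5% mitochondrial UMIs numbered 13 and 3 among neurons, and 7 and 23 among microglia. Without them, neurons were at 2934 and 1217 CPM and microglia at 3151 and 3549 CPM. In the male L6 CT label, 3 of 41 nuclei held 46.9% of the mitochondrial UMIs, and without them its level was 8275 CPM. In male Pvalb nuclei, 2 of 119 held 48.9%, and the level without them was 1681 CPM.

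Nuclear-encoded transcripts hardly followed the mitochondrial ones from nucleus to nucleus. Nuclei were divided into tertiles by their mitochondrial share, which fixes the mitochondrial order but not that of the other genes. In male neurons the mitochondrial level went from 367 to 1566 and 12467 CPM, and the nuclear-encoded level from 1231 to 1285 and 1384 CPM. In female neurons the mitochondrial level went from 255 to 881 and 4576 CPM, with nuclear-encoded levels of 969, 970 and 1053 CPM. Genes for cytosolic ribosomal proteins, whose mRNAs are abundant in cytoplasm, went from 902 to 1736 CPM in male and from 627 to 1027 CPM in female neurons. Malat1, a nuclear-retained RNA, went the other way, from 100771 to 63986 CPM in male and from 109431 to 85385 CPM in female neurons. The median depth also fell, from 5406.5 to 2421 UMIs per nucleus in male and from 12065 to 4651.5 in female neurons.

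In microglia, the mitochondrial level went from 354 to 9189 CPM (male) and from 291 to 11935 CPM (female). The nuclear-encoded level was 1316, 1427 and 1407 CPM across the male tertiles and 1057, 1069 and 1064 CPM across the female ones. Malat1 was between 16310 and 20887 CPM in all 6 microglial tertiles, with no common direction. Ribosomal protein genes were higher in the highest than in the lowest tertile, at 1871 against 1502 CPM (male) and 1298 against 1030 CPM (female), and the median depth went from 1408 to 1207 and from 3321.5 to 2756 UMIs per nucleus. The part of cytoplasmic RNA in these values was not tested.

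**Figure D2:**
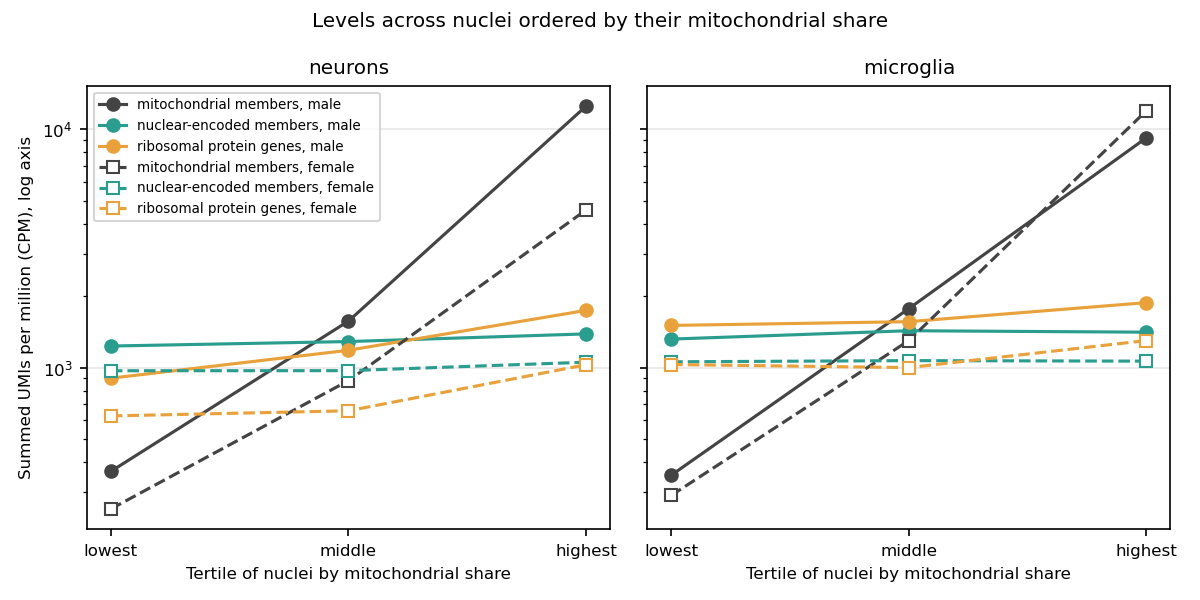
Summed CPM (log axis) of the mitochondrial members, the nuclear-encoded members and the ribosomal protein genes in nuclei divided into tertiles by mitochondrial share, for neurons (left) and microglia (right), with filled symbols for the male and open symbols for the female library. The mitochondrial lines climb steeply, as the ordering requires, while the nuclear-encoded lines stay between 969 and 1427 CPM.

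Barcodes that were not called as nuclei, named droplets here, hold RNA that can include free RNA. Which of them stand for free RNA was not tested. Barcodes with 1 to 50 UMIs numbered 404579 (male) and 666646 (female), but 89.0% and 77.9% of them held a single UMI, and together they held 1.73% and 1.88% of all UMIs. In these droplets the mitochondrial genes were at 10795 and 12564 CPM and the nuclear-encoded genes at 2117 and 1651 CPM. A second population of uncalled droplets, with over 100 and up to 500 UMIs (medians of 209 and 301), was far larger in RNA, with 57.0% and 47.6% of all UMIs. There the mitochondrial genes were at 2386 and 2436 CPM and the nuclear-encoded genes at 1393 and 1087 CPM. The mitochondrial level of uncalled droplets thus depended on their class, and both classes are used below, the larger one added after seeing the data.

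The 13 mitochondrial genes lie on chromosome M of GRCm38 (GENCODE vM21), from mt-Nd1 at chrM:2751-3707 to mt-Cytb at chrM:14145-15288, and each is a single exon. mt-Nd6 (chrM:13552-14070) lies on the minus strand and the other 12 on the plus strand. mt-Atp8 overlaps mt-Atp6 and mt-Nd4l overlaps mt-Nd4 on the same strand, so counts near these ends may be affected. mt-Nd5 overlaps mt-Nd6 on opposite strands. mt-Co3, a core subunit of complex IV, was the most abundant in neurons at 665 and 237 CPM, followed by mt-Co1 (574 and 208 CPM) and mt-Atp6 (528 and 204 CPM). Per kb of gene, neurons held 575 CPM of mt-Co3 and 538 CPM of mt-Atp6 against 30.3 CPM of mt-Nd5 and 9.61 CPM of mt-Nd6 (means of both libraries).

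The shares of the abundant mitochondrial transcripts varied less than those of the rare ones. Over 9 cell and droplet groups in both libraries (18 sums), mt-Co3 made up 16.4% to 22.1% of the mitochondrial UMIs, mt-Co1 13.8% to 20.1%, mt-Atp6 12.9% to 15.7% and mt-Co2 10.4% to 13.6%. The complex I transcripts mt-Nd1 (4.32% to 8.21%) and mt-Nd4 (6.07% to 10.3%) varied more. Among the rarer ones, mt-Atp8 ran from 0.0990% to 0.868%, mt-Nd4l from 0.275% to 1.38%, mt-Nd5 from 1.12% to 2.95%, mt-Nd3 from 1.02% to 2.60% and mt-Nd6 from 0 to 0.575%. Droplets of 1 to 50 UMIs held the lowest share of mt-Nd4, mt-Nd5, mt-Nd4l and mt-Atp8 among the 18 sums. Microglia had the highest mt-Co1 share, 20.1% in the female library, and the lowest mt-Cytb share, 8.56%.

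**Figure D3:**
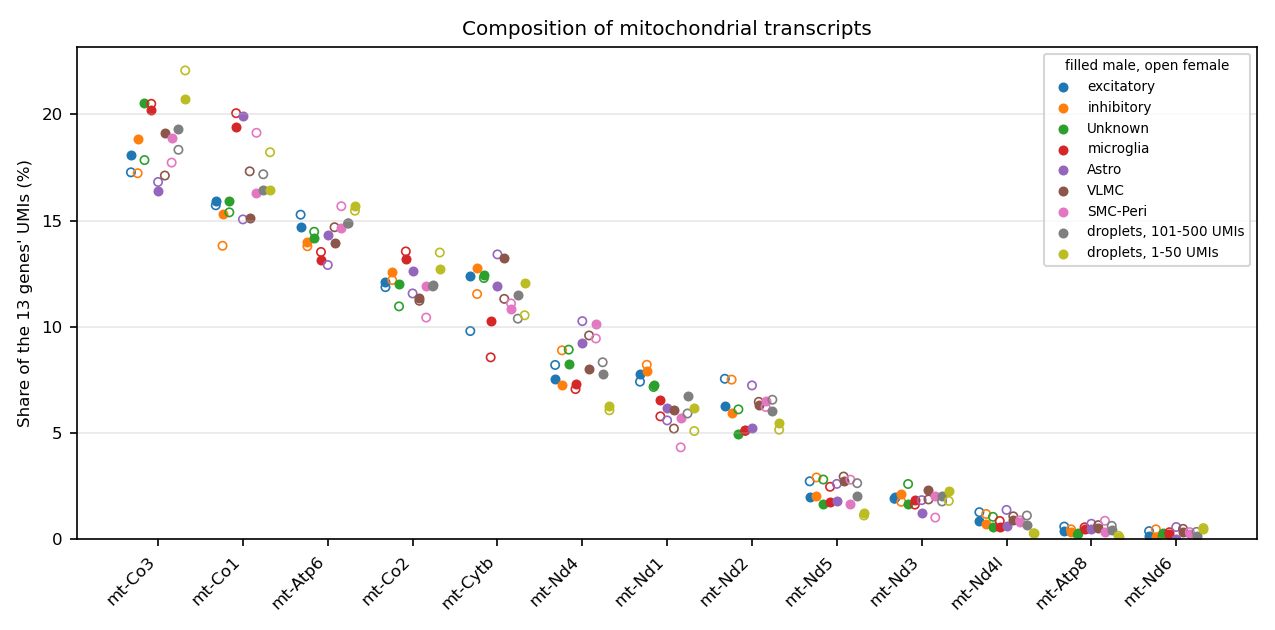
Share of each of the 13 genes in the mitochondrial UMIs (percent, from 0) in 7 cell groups and 2 droplet classes, filled for the male and open for the female library. The order of the genes is largely kept, from mt-Co3 at 16.4% to 22.1% down to mt-Nd6 below 1%, and the droplets of 1 to 50 UMIs lie lowest for mt-Nd4 and mt-Nd5.

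Among the nuclear-encoded members, complex I subunits took the largest part. They held 478 and 375 CPM in neurons, 37.2% and 38.0% of the nuclear-encoded total, and 521 and 435 CPM in microglia. ATP synthase genes held 291 and 203 CPM in neurons and 316 and 212 CPM in microglia. Complex IV genes held 166 and 114 CPM in neurons and 159 and 108 CPM in microglia. Complex III genes were at 112 and 71.8 CPM in neurons and 97.8 and 71.6 CPM in microglia. Complex II, with 4 genes and no mitochondrial subunit, was at 105 and 95.8 CPM in neurons and 166 and 147 CPM in microglia. The complex I assembly factors, which help build the enzyme but are not part of it, were at 132 and 127 CPM in neurons and 121 and 90.4 CPM in microglia. Within each library, complexes I and II and ATP synthase were higher in microglia, and complexes III and IV and the assembly factors in neurons. Only for complex II and the assembly factors did all values of one class lie above those of the other, and the female complex III sums were nearly equal. The sums have no test.

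The members counted most often in neurons were long genes. Ndufs4, an accessory subunit of complex I at chr13:114287795-114388258, led in neurons with 74.2 and 61.2 CPM, and 97.3% of its span is intron. Ndufa10 (chr1:92439010-92473860), another complex I subunit, followed with 58.1 and 42.6 CPM, and Sdhb (chr4:140961203-140979193), the iron-sulfur subunit of complex II, with 49.2 and 46.6 CPM. Per kb of genomic span, neurons held 0.674 CPM of Ndufs4, 1.45 CPM of Ndufa10 and 2.66 CPM of Sdhb, whereas Atp5k, a short ATP synthase gene, held 9.65 CPM. Across the 93 genes, Spearman's rho between span and CPM was 0.53 in male and 0.70 in female neurons, and 0.57 and 0.68 in microglia. Exon length gave rho of 0.59 and 0.61 in neurons, 0.67 and 0.63 in microglia and 0.56 and 0.59 in droplets of 1 to 50 UMIs. These are descriptions across genes that share a library and a count rule that includes introns. In droplets of 1 to 50 UMIs rho was 0.37 and 0.57, and the 31 shortest genes (953 to 4956 bp) gave 20.3% and 13.3% of the nuclear-encoded level there, against 17.4% and 11.4% in neurons. Droplets of over 100 and up to 500 UMIs were close to neurons, with rho of 0.55 and 0.69 and shares of 16.5% and 11.7%.

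**Figure D4:**
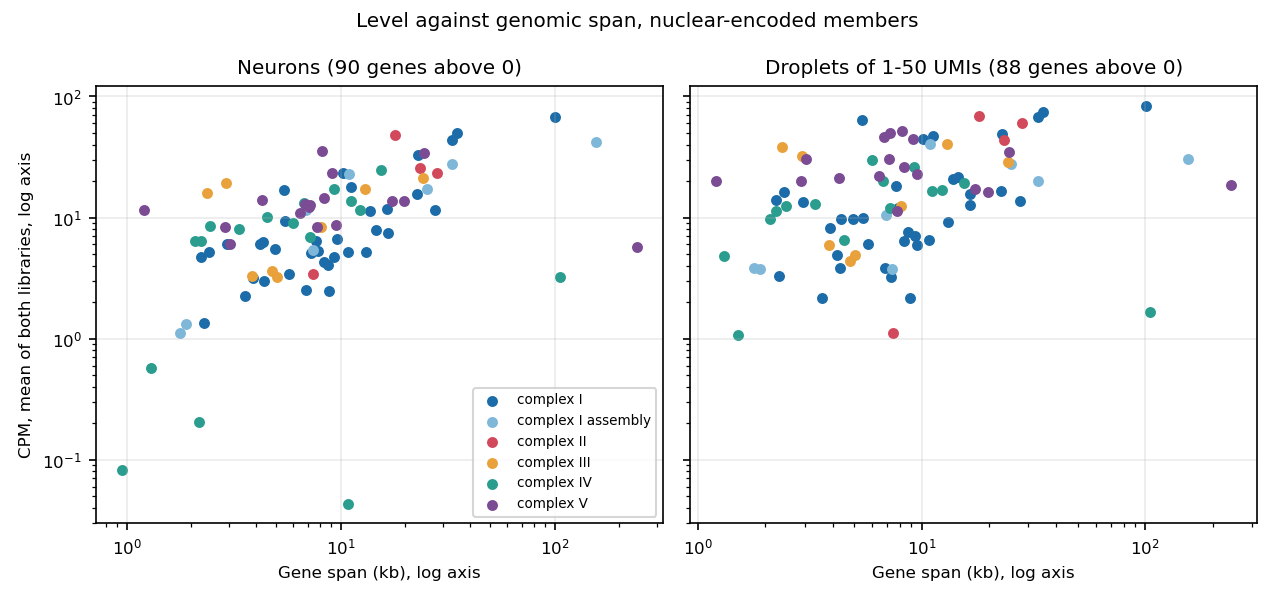
CPM (mean of both libraries) against genomic span in kb, both on log axes, for the nuclear-encoded members above 0 in neurons (left, 90 genes) and in droplets of 1 to 50 UMIs (right, 88 genes), coloured by complex. Longer genes are counted more often in neurons, where Ndufs4 is highest, and the 31 shortest genes have a larger share in these droplets.

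Several subunits exist as a common form and a form known from heart, muscle, testis or lung. The common forms had more UMIs than their alternatives in neurons and microglia. In neurons Cox4i1 had 80 and 59 UMIs against 0 and 1 for Cox4i2, Cox6a1 51 and 88 against 1 and 0 for Cox6a2, and Cox6b1 131 and 152 against 6 and 2 for Cox6b2. Cox7a1 and Cox8b had 0 UMIs in neurons, and Cox8c had 0 in all labelled nuclei and in both droplet classes. A count of 0 in neurons allows up to 0.490 CPM (male) and 0.261 CPM (female), by the limit of 3 counts. Cox7b2 was the 1 alternative form with more than a few UMIs in neurons, at 17 and 42 (2.78 and 3.65 CPM), against 2 and 2 in microglia (0.802 and 0.249 CPM). Its span of 105382 bp is 99.5% intron, and droplets of over 100 and up to 500 UMIs held 2.92 and 3.62 CPM, as much as neurons. Ndufa4l2, a relative of Ndufa4, had 2 and 1 UMIs in neurons against 57 and 53 for Ndufa4. The Atp5g1, Atp5g2 and Atp5g3 genes encode the same mature subunit c of ATP synthase. In neurons they had 104, 61 and 68 UMIs in the male library and 104, 84 and 64 in the female one, and in microglia Atp5g2 led with 51 and 119 UMIs.

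Differences between cell groups were then tested gene by gene on the summed counts of each label and library with edgeR's quasi-likelihood test over all genes, with Benjamini-Hochberg adjustment and a threshold of 0.05. In the fit of the 9 neuronal labels (8665 genes), 47 of the 93 nuclear-encoded and 12 of the 13 mitochondrial members passed the filter on low counts. In the fit of cell classes and droplets (12418 genes), 69 and 13 passed. The members left out were too low to test. Both libraries of a group are treated as its replicates, and the comparisons share sums with each other. A group of several labels entered as the unweighted mean of its labels, and neurons in the fit of classes as that of the excitatory and inhibitory sums. Where values of called members are said not to overlap, this follows largely from the calls, and its share over all genes is not given. Where adding the library as a block (each pool contributes to every label) changed the count of called members by more than 1.5 times, that count is given too.

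**Figure D5:**
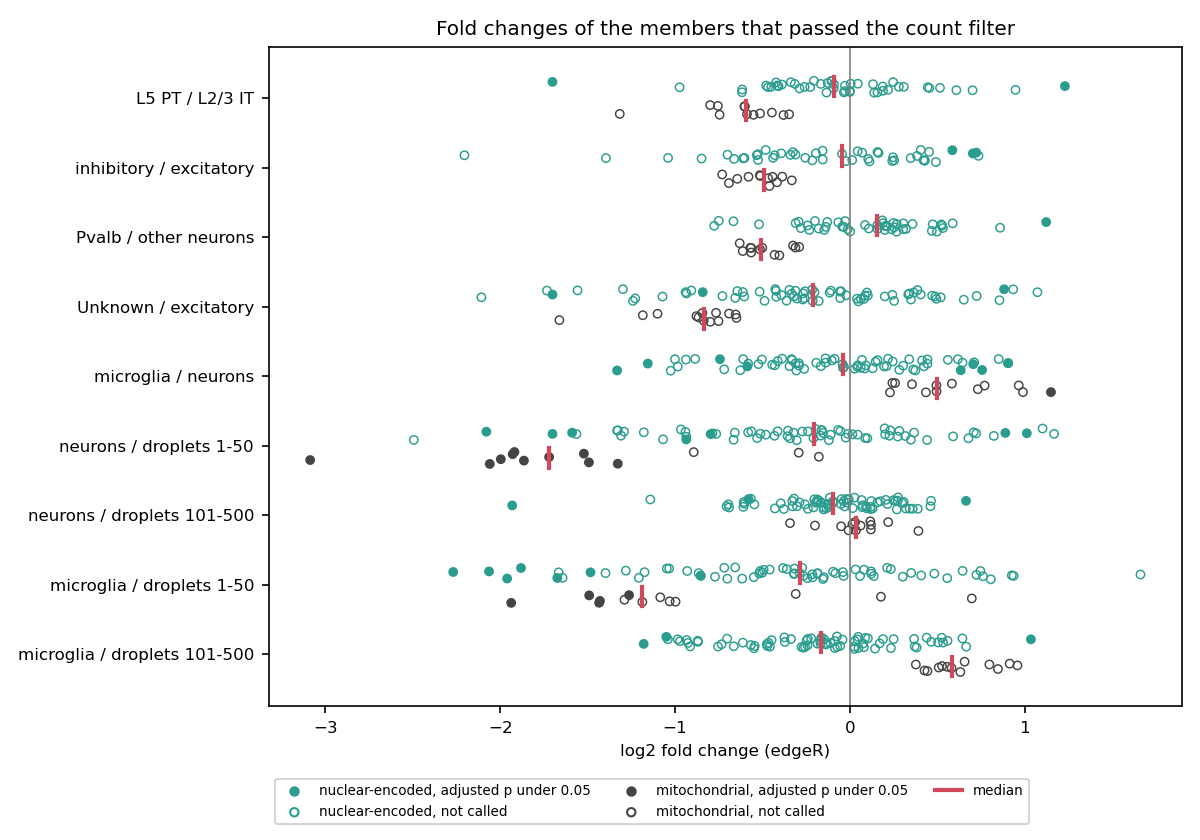
log2 fold changes from edgeR of the members that passed the count filter, nuclear-encoded (upper row of each pair) and mitochondrial (lower row), for 7 comparisons and for the same 2 droplet comparisons with the larger droplets. Filled points have an adjusted p under 0.05 and the bar is the median. Nuclear-encoded medians lie between -0.29 and 0.16, whereas the mitochondrial ones range from -1.72 to 0.58.

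L5 PT neurons, the projection cells of layer 5, differed from L2/3 IT neurons in 2 members. Ndufaf7, a methyltransferase needed for complex I assembly, was at 32.5 and 33.8 CPM in L5 PT against 17.4 and 13.6 CPM in L2/3 IT CTX-1 and 16.4 and 11.7 CPM in CTX-2 (3 UMIs each). Both L5 PT values lay above all 4 L2/3 IT values, and the gene rose by 1.23 on the log2 scale (SE 0.34, adjusted p = 0.0157). Ndufb7, an accessory subunit of complex I, was at 4.90 and 2.89 CPM in L5 PT (8 and 10 UMIs) against 6.02 to 23.4 CPM in the L2/3 IT sums, and fell by 1.70 on the log2 scale (SE 0.54, adjusted p = 0.0405). So 1 of 47 nuclear-encoded members was higher and 1 lower, where 6.76% of all genes were higher and 5.95% lower. Their median was -0.09 (all genes -0.01). The mitochondrial members had a median of -0.59, and none was called without the library block by edgeR or DESeq2, with 0 at an unadjusted p under 0.05 (mt-Nd4 was called with the block). With a free RNA profile subtracted, 0 members were called. Among members not called, the largest values were 0.95 for Ndufa12 and 0.61 for Cox6b1 upward, and -1.32 for mt-Atp8 and -0.97 for Atp5e downward.

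Inhibitory neurons held more of 3 nuclear-encoded members than excitatory ones, each from a different part of the pathway. The CPM of the 2 classes are sums over all their nuclei, whereas the fit compared unweighted means of the labels. Vip (34 and 27 nuclei) therefore counted as much as Pvalb, and the log2 differences need not equal the ratios of the sums. Sdhb was at 59.1 and 55.5 CPM in inhibitory against 45.5 and 42.3 CPM in excitatory neurons, with no overlap, a log2 difference of 0.70 (SE 0.17, adjusted p = 0.00346). Within the inhibitory labels it was highest in Vip (89.3 and 77.8 CPM) and Sst (69.1 and 61.2 CPM), while Pvalb (45.7 and 48.0 CPM) was near the excitatory level. Ndufv2, a subunit of the NADH-oxidising arm of complex I, was at 41.4 and 38.4 against 29.5 and 31.0 CPM, a difference of 0.59 (SE 0.18, adjusted p = 0.0184). Ndufaf5, a complex I assembly factor, was at 31.7 and 40.3 against 25.2 and 23.1 CPM, a difference of 0.72 (SE 0.23, adjusted p = 0.0256). By edgeR and by DESeq2 no member was lower, and 9 of 47 nuclear-encoded members had an unadjusted p under 0.05 in either direction. Over all genes 11.9% were higher and 12.7% lower in inhibitory neurons, so 3 of 47 is no more than the background. With the library as a block 6 members were called, where 28.3% of all genes were. The median of the nuclear-encoded members was -0.05, equal to that of all genes, and that of the mitochondrial members -0.49, with none called without the block by edgeR or DESeq2 and 0 at an unadjusted p under 0.05 (mt-Atp6 was called with it). Ribosomal protein genes, which follow the mitochondrial share among neurons, had a median of -1.04 in the same comparison, and their part was not tested. The largest values among members not called were 0.74 for Cox5a upward, and -2.20 for Atp5s, -1.40 for Atp5k and -1.04 for Atp5e downward.

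The promoters of these 3 genes are shown because they are the members that were higher together in inhibitory neurons. The windows run from 250 bases before to 50 bases after the start in RefSeq (GRCm38.p6), 5′ to 3′ on the strand of the gene. They are Sdhb (chr4:140961021-140961320, plus strand), Ndufaf5 (chr2:140170396-140170695, plus strand) and Ndufv2 (chr17:66101510-66101809, minus strand). Capitals mark the core of the site of NRF1, a known activator of respiratory genes (GCGCATGC or its reverse complement GCATGCGC, which can overlap), and an ETS core (CCGGAAG or CTTCCGG).
Sdhb: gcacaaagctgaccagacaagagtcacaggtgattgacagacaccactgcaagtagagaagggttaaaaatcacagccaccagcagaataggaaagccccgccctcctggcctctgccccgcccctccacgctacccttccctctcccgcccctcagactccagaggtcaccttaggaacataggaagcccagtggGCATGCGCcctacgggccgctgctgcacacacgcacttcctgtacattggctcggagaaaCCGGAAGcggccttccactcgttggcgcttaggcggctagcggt
Ndufaf5: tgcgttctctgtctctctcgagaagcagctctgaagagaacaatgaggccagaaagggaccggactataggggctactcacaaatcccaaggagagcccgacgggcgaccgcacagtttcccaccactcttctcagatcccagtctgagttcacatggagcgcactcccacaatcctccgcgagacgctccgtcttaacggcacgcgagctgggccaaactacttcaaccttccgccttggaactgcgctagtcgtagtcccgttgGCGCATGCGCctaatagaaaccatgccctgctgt
Ndufv2: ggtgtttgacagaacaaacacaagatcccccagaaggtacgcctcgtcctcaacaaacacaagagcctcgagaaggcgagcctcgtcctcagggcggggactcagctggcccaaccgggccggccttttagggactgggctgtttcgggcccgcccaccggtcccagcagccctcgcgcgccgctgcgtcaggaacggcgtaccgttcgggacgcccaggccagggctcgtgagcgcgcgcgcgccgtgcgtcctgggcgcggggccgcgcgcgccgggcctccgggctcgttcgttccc
Sdhb held an NRF1 and an ETS core, Ndufaf5 an overlapping pair of NRF1 cores, and Ndufv2 neither. Of the 92 nuclear-encoded symbols, 74 matched a promoter in the table. The NRF1 core was present in 12 of them (16.2%) against 3.05% of all 27025 symbols, and the ETS core in 18 (24.3%) against 9.93%. A match describes the letters only.

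Pvalb interneurons, fast-spiking cells with a high energy demand, differed from the other 8 neuronal labels in 1 member. Ndufaf5 was at 37.8 and 51.1 CPM in Pvalb nuclei, higher by 1.12 on the log2 scale (SE 0.22, adjusted p = 0.000579). In the other labels it ranged from 9.7 CPM (female L6 IT, 4 UMIs) to 32.5 CPM (male Vip, 4 UMIs), all below both Pvalb values. Over all genes 11.7% were higher and 7.43% lower in Pvalb nuclei. With the library as a block 5 members were called (25.3% of all genes): Ndufaf5, Cox5a, Sdha and Atp5c1 higher and mt-Atp6 lower. Without the block, Cox5a was at 0.86 (adjusted p = 0.112) and Sdha at 0.59 (adjusted p = 0.103), and downward the largest values were -0.78 for Ndufa4, -0.67 for Ndufb7 and -0.63 for mt-Nd4l. The nuclear-encoded members had a median of 0.16 (all genes 0.01) and the mitochondrial ones of -0.51, with none called without the block by edgeR or DESeq2 and 0 at an unadjusted p under 0.05.

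Nuclei labelled Unknown held less mitochondrial RNA in sum than excitatory neurons in both libraries, 1906 and 897 against 3737 and 1431 CPM. L5 PT, an excitatory label, was at 2220 and 855 CPM, so its female value was below Unknown. The 5% of excitatory nuclei with the most mitochondrial UMIs held 55.5% and 42.3% of them, against 27.0% and 22.1% in Unknown. The median share per nucleus was closer, 0.135% and 0.0853% in Unknown against 0.159% and 0.0892% in excitatory nuclei. The median of the 13 genes was -0.84 on the log2 scale, with none called by edgeR or DESeq2 and 1 at an unadjusted p under 0.05. Of the nuclear-encoded members, Sdha, the flavoprotein subunit of complex II, was at 34.0 and 35.3 against 22.99 and 17.8 CPM and was higher by 0.88 (SE 0.27, adjusted p = 0.0205). Cox6a1, a complex IV subunit, was at 3.19 and 1.89 CPM (3 and 3 UMIs) against 9.15 and 8.005 CPM, and fell by 1.70 (SE 0.58, adjusted p = 0.0392). Ndufaf2, an assembly factor of complex I, was at 24.5 and 23.3 against 45.5 and 46.1 CPM, and fell by 0.84 (SE 0.30, adjusted p = 0.0455). These 3 were picked by a test on these same values, so the lack of overlap between the groups is no result about them. Over all genes 10.6% were higher and 13% lower. With the library as a block 9 members were called (31.1% of all genes). No member was called once nuclei with 2 or more UMIs over the 10 microglial markers were left out, where Sdha was at -0.10. With free RNA subtracted as for L5 PT, 0 nuclear-encoded members were called. The nuclear-encoded median was -0.21 and that of all genes -0.13. Among members not called, Atp5o (the 242585 bp gene) was at 1.07 and Ndufc2 at 0.93, and Atp5k at -2.11 and Ndufc1 at -1.73.

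Microglia and neurons differed in individual members in both directions. Higher in microglia were Atp5g2 (20.5 and 14.8 against 9.96 and 7.31 CPM in neurons, log2 difference 0.90, SE 0.30, adjusted p = 0.0136) and Sdha (52.9 and 40.3 against 26.0 and 20.8 CPM, 0.76, SE 0.21, adjusted p = 0.00434). Ndufa9 (21.7 and 19.0 against 10.9 and 12.004 CPM, 0.71, adjusted p = 0.0347) and Ndufa7 (16.4 and 19.9 against 12.6 and 9.92 CPM, 0.63, adjusted p = 0.0496), both complex I subunits, were higher too. Lower in microglia were Ndufaf5 (13.2 and 12.6 against 26.9 and 28.7 CPM, -1.33, SE 0.27, adjusted p = 0.000215) and Cox5a, a complex IV subunit (8.02 and 6.47 against 15.0 and 12.5 CPM, -1.16, SE 0.30, adjusted p = 0.00268). Ndufa10 (37.7 and 27.0 against 58.1 and 42.6 CPM, -0.74, adjusted p = 0.0125) and Ndufaf2 (30.1 and 28.1 against 41.8 and 42.9 CPM, -0.59, adjusted p = 0.0423) were lower too. These 8 were picked by a test on these same values, so the lack of overlap between microglia and neurons is no result about them. mt-Nd6 was at 9.22 and 14.3 CPM in microglia (23 and 115 UMIs) against 4.41 and 5.57 CPM in neurons, higher by 1.15 (SE 0.48, adjusted p = 0.0478).

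Of the 69 nuclear-encoded members tested in microglia against neurons, 4 were higher and 4 lower, where 28.1% of all genes were higher and 27.8% lower. The share of members called was thus well below the background. With the library as a block 18 members were called, where 64.3% of all genes were. The median of the nuclear-encoded members was -0.04 (all genes 0.05), with complex I subunits at 0.20, complex IV at -0.26 and the assembly factors at -0.59. The mitochondrial median was 0.50. The summed mitochondrial level of microglia over neurons was 1.66 on the log2 scale in the female and -0.03 in the male library, and the summed nuclear-encoded log2 ratio was 0.10 (male) and 0.11 (female), with no test of the sums. mt-Nd6 did not pass by DESeq2.

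Against droplets of 1 to 50 UMIs, neurons held less of 10 of the 13 mitochondrial members. mt-Nd6 differed most, at 4.41 and 5.57 CPM in neurons against 53.4 and 65.8 CPM (25 and 59 UMIs) in these droplets, and fell by 3.09 on the log2 scale (SE 0.50, adjusted p = 0.000159). mt-Co3, at 665 and 237 against 2236 and 2773 CPM, fell by 2.06 (SE 0.46, adjusted p = 0.00297). mt-Co1 fell by 1.996, mt-Atp6 by 1.93, mt-Co2 by 1.92, mt-Nd3 by 1.86, mt-Cytb by 1.72, mt-Nd2 by 1.52, mt-Nd4 by 1.49 and mt-Nd1 by 1.33. mt-Nd5 (-0.89), mt-Atp8 (-0.29) and mt-Nd4l (-0.18) did not pass. The summed level in neurons over these droplets was -3.19 on the log2 scale in the female and -1.57 in the male library.

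Of the nuclear-encoded members, 5 were lower and 2 higher in neurons than in these droplets, where 13.2% of all genes were lower and 9.99% higher. Atp5e, the epsilon subunit of ATP synthase, was at 8.98 and 3.04 CPM against 47.0 and 13.4 CPM (22 and 12 UMIs) and fell by 2.08 (SE 0.64, adjusted p = 0.0232). Atp5d, the delta subunit, fell by 1.70 (SE 0.41, adjusted p = 0.00502) and Ndufv1, which binds NADH in complex I, was at -1.59 (SE 0.43, adjusted p = 0.0119). Ndufv3 and Sdha were the other two. Ndufaf5 (1.01, SE 0.32, adjusted p = 0.0274) and Ndufaf2 (0.89, SE 0.30, adjusted p = 0.0347) were higher. The nuclear-encoded median was -0.21 and that of all genes -0.01, with ATP synthase genes at -0.53. With the library as a block 24 members were called, where 32.7% of all genes were.

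The choice of droplets decided the mitochondrial result. Against droplets of over 100 and up to 500 UMIs no mitochondrial member was called in neurons by edgeR, 0 had an unadjusted p under 0.05, and their median was 0.03. There neurons were at 3640 against 2386 CPM (male) and 1374 against 2436 CPM (female), in opposite directions. Sdhb was higher in neurons (49.2 and 46.6 against 37.6 and 30.5 CPM, 0.66, SE 0.19, adjusted p = 0.0121), and Atp5e (-1.93, SE 0.50, adjusted p = 0.00762) and Sdha (-0.58, SE 0.19, adjusted p = 0.0293) were lower. This was 1 of 75 nuclear-encoded members higher and 2 lower, beside 10.1% and 16.1% of all genes. With the block 8 members were called, beside 42.1% of all genes.

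Microglia against droplets of 1 to 50 UMIs gave a similar split. By edgeR and by DESeq2 no nuclear-encoded member was higher (12 of 69 had an unadjusted p under 0.05 in either direction), and 7 were lower, where 19.0% of all genes were higher and 21.7% lower. They included Atp5g1 (13.6 and 2.98 against 70.6 and 22.3 CPM, -2.27, SE 0.63, adjusted p = 0.00727), the Atp5o gene of 242585 bp (-2.06), Uqcr10 of complex III (-1.96), Ndufv1 (-1.88), Atp5d (-1.67) and Atp5g3 (-1.48). Of the mitochondrial members 5 were lower, among them mt-Nd6 (-1.94, SE 0.55, adjusted p = 0.00776), mt-Cytb (-1.49), mt-Atp6 (-1.43) and mt-Nd3 (-1.43), with a median of -1.19. The block gave 22 called members beside 49.5% of all genes. Against droplets of over 100 and up to 500 UMIs the mitochondrial median was 0.58, with none called by edgeR and 0 at an unadjusted p under 0.05. Sdhb was higher (70.2 and 72.2 against 37.6 and 30.5 CPM, 1.04, SE 0.21, adjusted p = 0.000414), and Ndufaf5 (-1.18, SE 0.27, adjusted p = 0.00111) and Ndufa5 (-1.05, SE 0.40, adjusted p = 0.0353) were lower, beside 23.7% of all genes higher and 27.1% lower. With the block this became 27 members, beside 63.4% of all genes.

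Other genes of energy metabolism were read from lists in the same fits. Of 13 tested glycolysis genes, 0 were called by edgeR between L5 PT and L2/3 IT neurons (1 at an unadjusted p under 0.05), and 1 was higher and 2 lower in inhibitory neurons. Of all genes, 6.76% were higher and 5.95% lower in L5 PT, 11.9% and 12.7% in inhibitory and 11.7% and 7.43% in Pvalb neurons. Of 17 TCA cycle genes, which feed NADH and succinate to the chain, Ogdh and Idh3a were higher in inhibitory neurons, and Ogdh, Idh3a, Dlst and Pdhb in Pvalb nuclei, where the list had a median of 0.46. Ppargc1a and Esrrg, regulators of mitochondrial biogenesis, were higher in L5 PT, inhibitory and Pvalb neurons, in comparisons that share sums. Ppargc1b was also higher in inhibitory and Pvalb neurons. Of 16 tested assembly factors outside the symbol rule, Ttc19, which serves complex III, and Sdhaf3, which serves complex II, were higher in each of these comparisons. In microglia against neurons, where 28.1% of all genes were higher and 27.8% lower, 5 of 19 glycolysis genes were higher and 6 lower, and 5 of 22 assembly factors outside the rule were lower and 1 higher, close to or below that background. Of 15 tested genes of a list named mitochondrial stress, 9 were lower in Unknown nuclei than in excitatory neurons (median -1.32). Atf4, Ddit3 and Trib3 were among them, where 13% of all genes were lower and 10.6% higher. The list is not particular to mitochondria, since the paper counts Ddit3 among genes of apoptosis and endoplasmic reticulum stress. Without nuclei holding 2 or more microglial UMIs 2 of 11 tested were called, and with free RNA subtracted 2 of 15, Ddit3 and Trib3 each time.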

How the data were processed

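Nuclei were sequenced as single-nucleus RNA libraries with 3′ chemistry from polyadenylated RNA. Per the labels, the authors processed reads with Cell Ranger 3.1.0 against mm10, whereas the study's methods name another Cell Ranger version. The deposited count matrices hold UMI counts per gene and barcode. A deposited table gave each nucleus its label and its percent of mitochondrial UMIs, which was recomputed here. A Seurat-corrected matrix was not used. UMIs were summed per library and label and scaled to 1e6 UMIs (CPM). Differences were fitted with edgeR 4.0.16 (R 4.3.3; TMM, filterByExpr, quasi-likelihood test, Benjamini-Hochberg over all genes, threshold 0.05), with DESeq2 1.42.0 as an alternative, in fits of 8665 genes (9 neuronal labels) and 12418 genes (classes and droplets), and code was tested on simulated data. With 2 libraries per group, p-values rest on the spread between 1 male and 1 female pool. For each gene, all labels of a fit share 1 estimate of that spread, as if labels of a pool were independent. All labels of a library come from the same pool, so the library number pairs them. Over 36 pairs of labels, correlations of the deviations ran from 0.0310 to 0.477 (median 0.178). Totals per sum ranged from 54082 to 8042263 UMIs. Intervals and floors cover counting error only. Named genes were the 13 mitochondrial members, members called (up to 10 per direction), where fewer than 5 were called the 3 largest changes per direction with one sign in both libraries, members at 0 and the isoform pairs. Members and lists were chosen with earlier results of these data known. Positions came from GENCODE vM21. Alternatives covered normalization, filters, the library block, free RNA, doublets and the droplet class.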

Additional observations from a re-analysis of the deposited data

Results flagged for a closer look

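The libraries gave opposite signs in 4 comparisons of summed levels, and none of these differences was tested, since each library is 1 pool. The nuclear-encoded level of L5 PT over L2/3 IT CTX-1 neurons was 0.191 on the log2 scale (male) and -0.0300 (female). That of inhibitory over excitatory neurons was -0.0204 (male) and 0.0342 (female). The mitochondrial level of microglia over neurons was -0.0315 (male) and 1.66 (female). That of neurons over droplets of over 100 and up to 500 UMIs was 0.609 (male) and -0.826 (female).

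Neuron-labelled nuclei outside the neuron subset entered no comparison. Their mitochondrial level was 8532 CPM in 421 male and 12997 CPM in 152 female nuclei, above that of the neuron subset in both libraries. Their median depth was 681 and 911.5 UMIs per nucleus.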

How the results depend on the processing

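Some counts of called members depended on the processing, and except where said the cause was not tested. Among these settings, shares over all genes are given above only for the library block and the larger droplets. The counts under the other settings, some of which also change the genes tested, are therefore no result about the members. With no filter on low counts, the counts became 5 for L5 PT against L2/3 IT (2 as reported), 12 for inhibitory against excitatory (3), 16 for microglia against neurons (9), 19 for microglia against droplets (12) and 8 for Unknown against excitatory (3). With the library as a replicate block, they became 6 for inhibitory against excitatory, 5 for Pvalb against other neurons (1), 18 for microglia against neurons, 22 for microglia against droplets and 9 for Unknown against excitatory. The block moved no other main count by over 1.5 times. With free RNA subtracted, L5 PT and Unknown gave 0, and the nuclear-encoded level was 883 CPM in neurons and 885 CPM in microglia. The subtraction treated all mitochondrial UMIs of a sum as free RNA with the profile of droplets of 1 to 50 UMIs. It set the mitochondrial genes to 0, so only nuclear-encoded members could be called. It rests on that droplet class, whose mean mitochondrial level was 11679 CPM, against 2411 CPM in the larger droplets. That subtraction removed the L6 CT sums in the neuronal fit, and Oligo, SMC-Peri and VLMC in the other. Without the mitochondrial genes in the table, 7 members were called for neurons and 7 for microglia against droplets, as the 13 mitochondrial ones were not tested.

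Without nuclei holding 2 or more microglial UMIs (827 of 1603 male and 1290 of 1372 female neuronal and Unknown nuclei), the counts were 9 for neurons against droplets (17) and 0 for Unknown, where Sdha turned to -0.10. The neuronal fit could not be fitted under this filter, because no female L6 CT nuclei were left.

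Droplets of 11 to 50 UMIs (370 and 699) and of 51 to 100 UMIs (190 and 300) gave 0 called members for neurons and 0 for microglia. These classes held only 7683 and 16051, and 15233 and 22947 UMIs, too few to test single members, so their counts and signs say nothing about direction. Atp5e and Uqcr10 had 0 UMIs in both classes and the named Atp5o gene 0 at 51 to 100 UMIs, so their fitted values are set by the prior count and are no folds. Droplets of over 100 and up to 500 UMIs, chosen after seeing the data, gave 3 for neurons and 3 for microglia, and 8 and 27 with the replicate block. The mean mitochondrial level was 5360, 2782 and 2411 CPM in these classes, and the nuclear-encoded level 1311, 1649 and 1240 CPM. For completeness, the fitted values of opposite sign were as follows. In neurons, droplets of 11 to 50 UMIs put Ndufaf5 at -0.0766, Atp5e at 6.20, mt-Co3 at 0.32, mt-Co1 at 0.0434, mt-Atp6 at 0.71, mt-Co2 at 0.89, mt-Nd3 at 0.57 and mt-Cytb at 0.70. Those of 51 to 100 UMIs put Atp5e at 6.18, mt-Co3 at 1.31, mt-Co1 at 0.40, mt-Atp6 at 0.26, mt-Co2 at 0.95, mt-Nd3 at 0.98, mt-Cytb at 1.61 and Ndufv1 at 0.32. Those of over 100 and up to 500 UMIs turned mt-Co3 to 0.0292, mt-Atp6 to 0.0342, mt-Co2 to 0.12, mt-Nd3 to 0.12 and mt-Cytb to 0.22, and with the replicate block mt-Atp6 to 0.0140, mt-Co2 to 0.0716, mt-Nd3 to 0.0643 and mt-Cytb to 0.16. In microglia, droplets of 11 to 50 UMIs put Uqcr10 at 6.70, mt-Cytb at 0.86, mt-Atp6 at 1.14 and mt-Nd3 at 0.93. Those of 51 to 100 UMIs put Atp5o at 5.72, Uqcr10 at 6.75, Ndufv1 at 0.0250, mt-Cytb at 1.84, mt-Atp6 at 0.76 and mt-Nd3 at 1.42. Those of over 100 and up to 500 UMIs turned mt-Nd6 to 0.96, mt-Cytb to 0.44, mt-Atp6 to 0.53 and mt-Nd3 to 0.56, and with the replicate block mt-Nd6 to 0.92, mt-Cytb to 0.45, mt-Atp6 to 0.53 and mt-Nd3 to 0.58.

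Within the limits of the study's methods (at most 5% mitochondrial UMIs), microglia were at 3350 CPM for the mitochondrial genes. Without TMM factors, the nuclear-encoded median was -0.70 for neurons and -0.63 for microglia against droplets of 1 to 50 UMIs, from -0.21 and -0.29. Leaving out either library left 1 value per group and no test. The mitochondrial level of neurons then ran from 1374 to 3640 CPM.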
